A study of Mus musculus with 9 samples.

Results

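The genes described here are 8 genes of cholesterol synthesis and its control: Srebf2, Insig1, Hmgcs1, Idi1, Fdft1, Sqle, Lss and Cyp51. They were chosen by name, with earlier results of these data known, and all 8 were found among the 24346 gene symbols of the expression tables. Shares of all genes given beside counts of members are therefore a description and no test of a list set beforehand. The set was labelled as sterol synthesis and uptake genes, but it holds no uptake receptor: 6 members encode enzymes of synthesis and the other two, Srebf2 and Insig1, encode regulators. Genes of uptake are therefore described from separate pathway lists.

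RNA was sequenced from B cells sorted by flow cytometry from spleens of wild-type C57BL6 mice, in 9 libraries of 3 groups. The groups were follicular (FO) B cells of 8-week-old mice, FO B cells of 50-week-old mice, and age-associated B cells (ABCs) of 50-week-old mice, with 3 libraries each. FO B cells are the recirculating B cells of splenic follicles and were gated, among other markers, as B220hi CD43- CD23+ CD21lo. ABCs are a subset that accumulates with age and were gated, among other markers, as B220hi CD43- CD23- CD21lo CD11b+ CD11c+. No mouse carried a transgene or a deletion, and no agent was given. No ABC library of young mice was analysed here, so the ABC libraries could be set against young cells only across age as well. Levels are in FPKM, sequenced fragments of a gene scaled to its exon length and to the mapped fragments of the library, so levels of different genes are compared per length. In such bulk samples, fewer cells of a type and less RNA per cell cannot be told apart.

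Cells make cholesterol from acetyl-CoA. Hmgcs1 encodes the cytosolic HMG-CoA synthase, an early step, and Idi1 isomerizes the isoprenoid unit that Fdps joins into farnesyl diphosphate. Fdft1, squalene synthase, commits farnesyl diphosphate to sterols, Sqle oxidizes squalene, Lss closes the ring to lanosterol and Cyp51 removes a methyl group from lanosterol. Srebf2 encodes SREBP-2, a transcription factor held in the endoplasmic reticulum by Insig proteins when sterols are plentiful and carried to the Golgi by Scap when they are scarce, and SREBP-2 in turn activates genes of synthesis. Lymphocytes are known to raise this programme when they are activated and divide.

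On mouse assembly GRCm38 (mm10) with the GENCODE M21 annotation, all 8 are protein-coding genes. Srebf2 lies at chr15:82147181-82205379 and Sqle at chr15:59315077-59331192, both on the plus strand. Hmgcs1 lies at chr13:119690379-119708260 and Idi1 at chr13:8885501-8892451, both on the plus strand. Insig1 lies at chr5:28071363-28078662 on the plus strand and Cyp51 at chr5:4081145-4104746 on the minus strand. Fdft1 lies at chr14:63145150-63179578 on the minus strand and Lss at chr10:76531588-76557138 on the plus strand. Exons of Fdft1 share 774 of their 4227 bases with Ctsb on the opposite strand, and those of Cyp51 share 166 of 4415 bases with Akap9. Exons of Lss share 381 of 10787 bases with 4930483K19Rik, also on the opposite strand. Those of Hmgcs1 share 557 of 4594 bases with Gm48342 and those of Idi1 share 323 of 3505 with Gm48574, both on the opposite strand. The library kits did not mark strand, so reads in these stretches cannot be assigned to 1 gene.

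Promoters are shown as a description, since SREBP-2 is known to bind short sterol regulatory elements near the starts of its target genes. Its part in the levels of the members was not tested. RefSeq promoter windows of GRCm38, from 250 bases before to 50 after the start, were found for 6 of the 8 members. Those of Sqle and Fdft1 were not analysed. The 3 windows below are printed only as far as the earliest annotated transcript start, on the plus strand at chr13:119690101-119690350 for Hmgcs1, chr5:28071162-28071362 for Insig1 and chr15:82147019-82147180 for Srebf2. Capitals mark TCACNCCAC (a sterol regulatory element), CCAAT (bound by NF-Y), GGGCGG (bound by Sp1) and CACGTG (an E-box), on either strand.
Hmgcs1: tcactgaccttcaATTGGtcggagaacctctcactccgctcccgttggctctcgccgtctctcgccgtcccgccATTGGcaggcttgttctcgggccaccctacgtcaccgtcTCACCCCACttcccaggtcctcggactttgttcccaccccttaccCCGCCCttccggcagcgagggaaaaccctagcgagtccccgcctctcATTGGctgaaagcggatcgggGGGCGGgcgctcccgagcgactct
Insig1: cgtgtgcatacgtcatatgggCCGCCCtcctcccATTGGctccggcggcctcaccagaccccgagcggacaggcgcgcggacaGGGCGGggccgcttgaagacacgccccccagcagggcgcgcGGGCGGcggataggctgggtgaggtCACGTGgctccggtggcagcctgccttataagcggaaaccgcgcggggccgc
Srebf2: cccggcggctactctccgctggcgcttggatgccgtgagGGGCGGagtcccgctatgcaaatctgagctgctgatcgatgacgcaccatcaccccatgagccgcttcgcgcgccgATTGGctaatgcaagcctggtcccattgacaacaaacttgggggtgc
The full TCACNCCAC motif was found in the Hmgcs1 window alone of the 6, as TCACCCCAC from base -137 to base -129, counted back from the RefSeq start. It was present in 1.24% of all 32851 promoter windows. The shorter CACNCCAC, which lies within it, was found in Hmgcs1 and in Insig1, there outside the printed part, and in 6.24% of all windows. CCAAT and GGGCGG were each found in all 6 members' windows, against 37.4% and 35.7% of all windows. CACGTG was found in Insig1, from base -101 to base -96, and in 7.15% of all windows. These are matches of letters, not measured binding sites. The shares are over all windows and were not limited to genes expressed in these cells.

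The libraries held about 7300000 to 8880000 mapped reads each, as estimated from the steps of low FPKM values. About 57 reads (Sqle in an ABC library) to 3743 reads (Srebf2 in a young FO B library) stood behind a member's value. The ABC libraries carried the marks of their sort, since Itgam, Itgax and Tbx21 were higher and Fcer2a and Cr2 lower than in aged FO B cells. The summed level of 5 B lineage markers ran from 7393 to 7764 FPKM over the FO B libraries. Over the ABC libraries it ran from 6312 to 8145 FPKM. Most of that sum was Cd79a and Cd79b. Of the 5, Pax5 was lower in ABCs than in aged FO B cells, with means of 20.3 and 29.6 FPKM. Cd22 was higher, with means of 885 and 423 FPKM, and the other 3 were not called by the tests given below. The sum of 8 T cell markers was at most 2.78 FPKM in any library. The FO B (Aged) replicate 2 library stood apart for these genes: it was the lowest of its group for 8 of 8 members, as it was for 35% of all 10375 genes tested over the 9 libraries. It was also the most deeply sequenced library.

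All 8 members had their highest group mean in young FO B cells, an intermediate mean in aged FO B cells and their lowest mean in ABCs. This order held for 24.9% of the 10375 genes. Without FO B (Young) replicate 3 or without FO B (Aged) replicate 2, it held for 7 of 8 members, Lss being the exception. Within a group Srebf2 was by far the most abundant member and Lss among the least. Sqle stood near Cyp51 in FO B cells and below Lss in ABCs. Cyp51 lay below Idi1, Hmgcs1 and Insig1 in both FO B groups and came next after Srebf2 in ABCs, though its ABC mean of 12 ± 1.46 FPKM (SD, n = 3) did not differ from the 11.8 ± 1.34 FPKM of Insig1 beyond their spread.

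**Figure D1:**
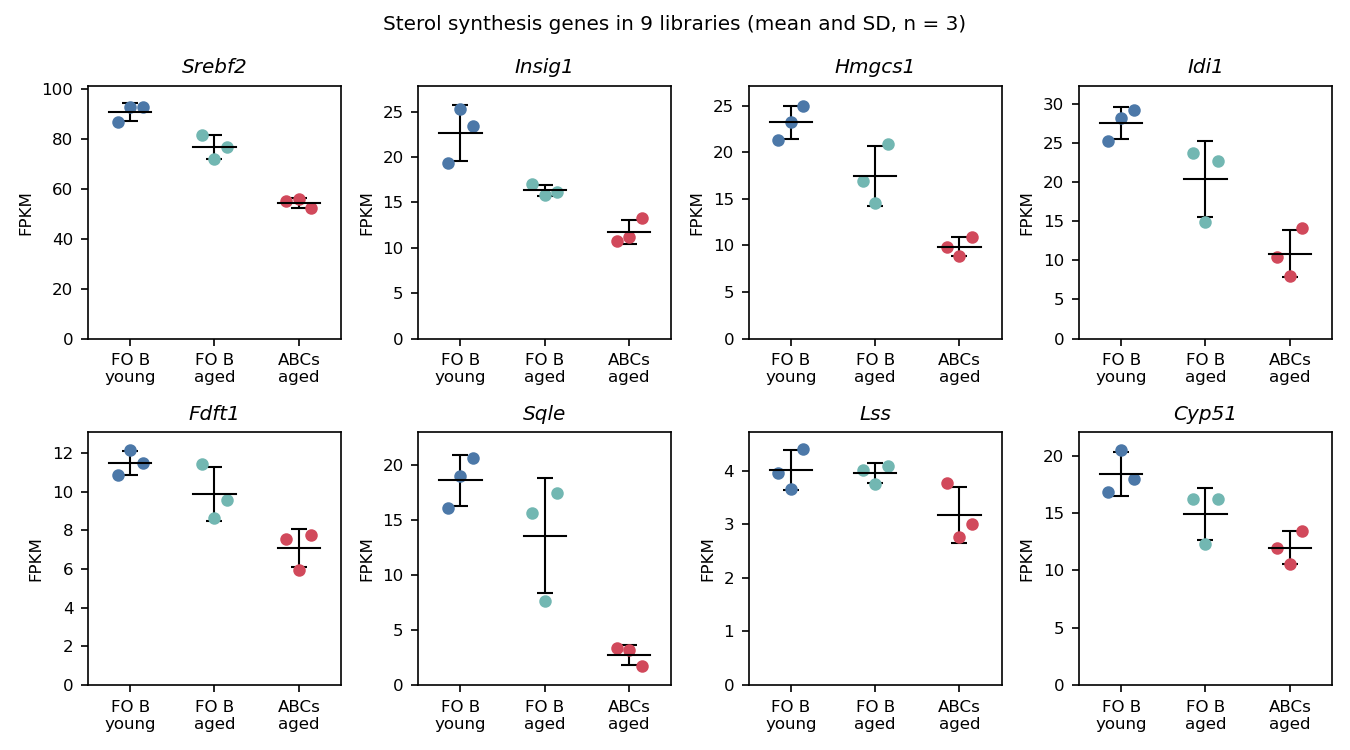
FPKM of the 8 sterol synthesis genes (y axis, from 0) in each of the 9 libraries (points) of the 3 groups (x axis), with the group mean and SD (bars, n = 3). Group means decline from young through aged FO B cells to ABCs for every gene, by least for Lss, and Sqle lies at 1.71 to 3.36 FPKM in the 3 ABC libraries against 7.65 to 17.5 FPKM in aged FO B cells.

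The comparison of ABCs with FO B cells of the same age asks what sets the age-associated subset apart. In ABCs 5 of the 8 genes were lower than in aged FO B cells, namely Srebf2, Insig1, Hmgcs1, Idi1 and Sqle, and none was higher. Of all 10412 genes tested, 16.5% were called lower and 19.4% higher. Upper-quartile scaling left 3 of the 5 calls (Hmgcs1, Idi1 and Sqle), and so did leaving out FO B (Aged) replicate 1 (Hmgcs1, Sqle and Srebf2). The median log2 fold change of the 8 genes was -0.47, against -0.01 for all genes tested. The 3 ABC libraries all lay below the 3 aged FO B libraries for 6 of 8 members, the 5 named and Fdft1, and for 26.3% of all genes. Calls rest on limma with Benjamini-Hochberg adjustment over all genes tested, on log2(FPKM + 1), a scale that understates changes of low genes. A single gene with 3 libraries against 3 cannot reach an exact two-sided permutation p below 0.1, the value every non-overlapping gene here has.

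Of the regulators, Srebf2 stood at 81.5, 72.1 and 77.0 FPKM in the aged FO B libraries and at 55.1, 56.0 and 52.3 FPKM in the ABC libraries. The groups did not overlap and were each tight, with means of 76.9 ± 4.72 and 54.5 ± 1.94 FPKM (SD, n = 3). Srebf2 was 1.41-fold lower in ABCs, a log2 fold change of -0.49 ± 0.07 (SE) with an adjusted p of 0.0021 by limma. Insig1, the Insig gene that SREBP-2 itself activates, was at 17.0, 15.8 and 16.1 FPKM in aged FO B cells and at 10.8, 11.2 and 13.3 FPKM in ABCs. Again no ABC library reached an FO B library, and Insig1 was 1.39-fold lower, with a log2 fold change of -0.44 ± 0.10 (SE) and an adjusted p of 0.013 by limma, or 0.054 without FO B (Aged) replicate 1. When libraries were scaled to their upper quartile, which moved the median of all genes to 0.15, neither regulator was called, with adjusted p of 0.11 for Srebf2 and 0.095 for Insig1. Relative to that median the differences were -0.46 for Srebf2 and -0.43 for Insig1. Subtracting the median largely undoes the scaling, so their closeness to the values above is no separate check.

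Among the early enzymes, Hmgcs1 was at 16.9, 14.5 and 20.9 FPKM in aged FO B cells and at 9.79, 8.89 and 10.9 FPKM in ABCs. Every ABC library was below every FO B library, and the mean was 1.77-fold lower, with a log2 fold change of -0.75 ± 0.14 (SE) and an adjusted p of 0.0065 by limma. Idi1 was at 23.7, 14.8 and 22.7 FPKM in aged FO B cells and at 10.4, 8.05 and 14.1 FPKM in ABCs. The highest ABC library of Idi1 came close to FO B (Aged) replicate 2, and both groups were wide, with coefficients of variation of 23.8% and 28.1%. Idi1 was 1.88-fold lower, with a log2 fold change of -0.86 ± 0.23 (SE) and an adjusted p of 0.026 by limma. That call was lost with no filter on low values and when any of 4 libraries was left out (FO B (Aged) replicates 1 and 3, ABCs (Aged) replicates 1 and 2), with adjusted p of 0.056 to 0.093.

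Of the enzymes from squalene onward, Sqle showed the widest gap of the 8. It was at 15.6, 7.65 and 17.5 FPKM in aged FO B cells and at 3.36, 3.17 and 1.71 FPKM in ABCs, a 4.93-fold lower mean. The groups lay far apart even though FO B (Aged) replicate 2 stood below the other two libraries of its group, with about 303 reads against 509 and 623. The log2 fold change was -1.91 ± 0.32 (SE), with an adjusted p of 0.0036 by limma, and without FO B (Aged) replicate 2 it was -2.25 with an adjusted p of 0.0021. Among the ABC libraries, replicate 3 was lowest for Sqle. It was also lowest for the FO B marker Fcer2a, at 0.463 FPKM against 4.15 and 6.95 FPKM in replicates 1 and 2. The mean of Fcer2a in ABCs was 0.54% of that in aged FO B cells, and its part in the level of Sqle was not tested. Fdft1 was at 11.4, 8.66 and 9.57 FPKM in aged FO B cells and at 7.58, 5.97 and 7.76 FPKM in ABCs. Its libraries did not overlap either, but its log2 fold change of -0.42 ± 0.14 (SE) had an adjusted p of 0.052 by limma and was not called. Under 6 of 16 other settings it was called, with adjusted p of 0.022 to 0.0496. Ctsb, a cathepsin gene that shares exon bases with Fdft1 on the opposite strand, was 2.76-fold higher in ABCs, opposite to Fdft1. Ctsb was named after its values were seen.

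The other two ring-forming and demethylating enzymes differed less between the groups. Cyp51 was at 16.2, 12.3 and 16.2 FPKM in aged FO B cells and at 11.9, 10.6 and 13.5 FPKM in ABCs, so that 1 ABC library lay inside the FO B range. Its log2 fold change was -0.29 with 95% limits of -0.61 to 0.04 and an adjusted p of 0.15 by limma. Lss was at 4.01, 3.75 and 4.09 FPKM in aged FO B cells and at 3.76, 2.75 and 3 FPKM in ABCs, again with overlap. Its log2 fold change was -0.25 with 95% limits of -0.57 to 0.07 and an adjusted p of 0.18 by limma. Neither was called, and these limits leave room for decreases of the size seen in Srebf2.

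**Figure D2:**
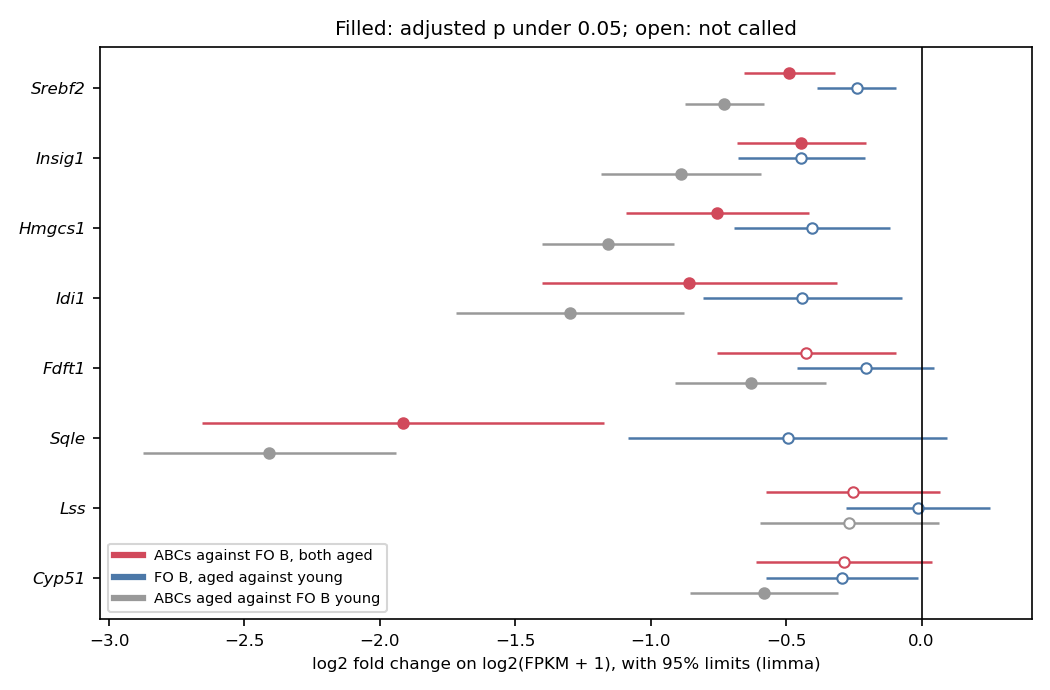
Log2 fold changes on log2(FPKM + 1) with 95% limits from limma (x axis) for the 8 genes (y axis) in 3 comparisons (colours, 3 libraries against 3). Filled points have an adjusted p under 0.05: 5 for ABCs against aged FO B cells, 0 for aged against young FO B cells, and 7 for ABCs against young FO B cells.

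The comparison of FO B cells at the 2 ages asks whether conventional B cells shift with age. No member was called in either direction, and of all 10122 genes tested 0.119% were called lower and 0.346% higher by limma. At an unadjusted p under 0.05 limma found 1298 genes. All 8 differences were below 0, with a median of -0.35 against 0.00 for all genes tested. Without FO B (Aged) replicate 2 the median was -0.18 and 7 of 8 were below 0. The 3 aged libraries all lay below the 3 young libraries for 5 of 8 members, Srebf2, Insig1, Hmgcs1, Idi1 and Cyp51, and for 8.96% of all genes.

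Insig1 was at 19.3, 25.3 and 23.4 FPKM in young and at 17.0, 15.8 and 16.1 FPKM in aged FO B cells. The aged libraries were close together and all below the young ones, and the log2 fold change was -0.44 ± 0.10 (SE) with an adjusted p of 0.13 by limma. Under upper-quartile scaling, where the median of all genes was -0.12, Insig1 was called with an adjusted p of 0.036. Srebf2 was at 86.8, 92.8 and 92.9 FPKM in young FO B cells, above all 3 aged libraries given above, with a log2 fold change of -0.24 ± 0.06 (SE) and an adjusted p of 0.17 by limma. Hmgcs1 was at 21.4, 23.3 and 25 FPKM in young FO B cells, a difference to the aged cells of -0.40 ± 0.13 (SE) on the log2 scale, with an adjusted p of 0.23 by limma.

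Idi1 was at 25.2, 28.2 and 29.2 FPKM in young FO B cells and Cyp51 at 16.8, 20.5 and 17.9 FPKM. Their log2 fold changes in aged FO B cells were -0.44 for Idi1 and -0.29 for Cyp51, with adjusted p of 0.30 and 0.37 by limma. Sqle, at 16.1, 19.0 and 20.6 FPKM in young FO B cells, overlapped the aged libraries and had a log2 fold change of -0.49 with 95% limits of -1.08 to 0.10. Without FO B (Aged) replicate 2 the difference was -0.15 for Sqle, -0.24 for Idi1 and -0.17 for Cyp51, while that of Insig1 was -0.42. Fdft1, at 10.9, 12.1 and 11.5 FPKM in young FO B cells, had a log2 fold change of -0.21 with 95% limits of -0.46 to 0.05, and -0.12 without that library. Lss, at 3.95, 3.66 and 4.40 FPKM in young FO B cells, had one of -0.01 with 95% limits of -0.28 to 0.25, and its sign turned when FO B (Aged) replicate 2 or FO B (Young) replicate 3 was left out.

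**Figure D3:**
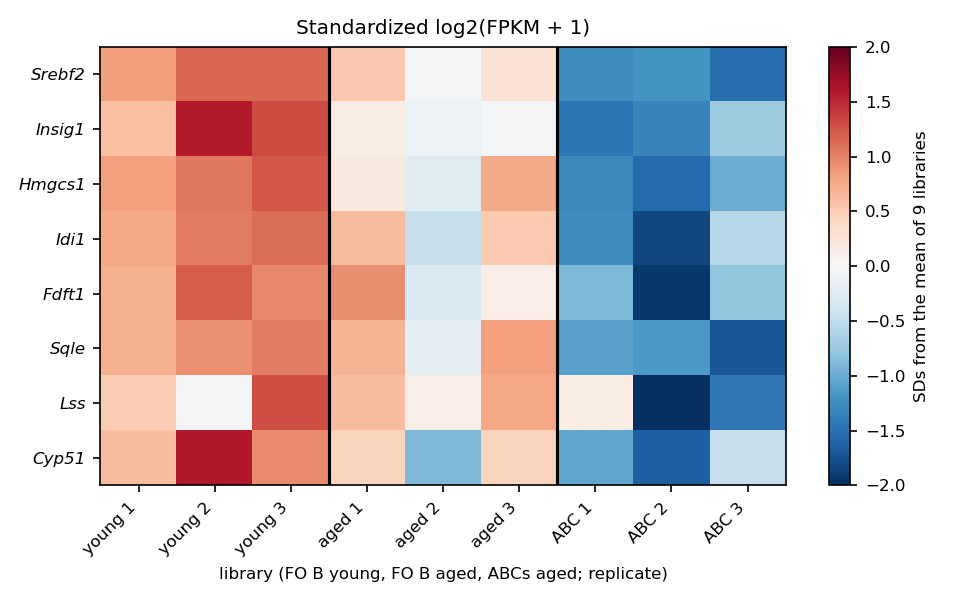
Standardized log2(FPKM + 1) of the 8 genes (rows) in the 9 libraries (columns, replicates 1 to 3 of each group), coloured as SDs from each gene's mean over the 9 libraries. Averaged over the 8 genes, the libraries stand at 0.70 to 1.13 in young FO B cells, -0.26 to 0.52 in aged FO B cells, where replicate 2 is the lowest, and -1.57 to -1.02 in ABCs.

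Against young FO B cells, where age and subset differ together and cannot be told apart, ABCs had lower levels of 7 of the 8 genes, all but Lss. Of all 10438 genes tested, 19.1% were called lower and 21.6% higher. This comparison shares its ABC libraries with the first and its young libraries with the second, so it is no separate evidence. The median log2 fold change of the 8 genes was -0.81, against -0.01 for all genes, and the same 7 genes had no overlap between the groups, as had 27.6% of all genes in that direction. Sqle was 6.75-fold lower, with a log2 fold change of -2.41 ± 0.20 (SE) and an adjusted p of 0.00015 by limma. Idi1 was 2.54-fold and Hmgcs1 2.35-fold lower, with log2 fold changes of -1.30 and -1.16. Insig1, Srebf2, Fdft1 and Cyp51 followed with log2 fold changes of -0.89, -0.73, -0.63 and -0.58 and adjusted p from 0.00017 to 0.0071 by limma. Lss had a log2 fold change of -0.27 with 95% limits of -0.60 to 0.06.

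The rest of the pathway was read from lists of 53 other genes by role. Of 42 that were tested between ABCs and aged FO B cells, 8 were lower and 11 higher, against 16.5% lower and 19.4% higher of all 10412 genes tested. The median log2 fold change of the 42 was -0.02, against -0.01 for all genes. Without FO B (Aged) replicate 1 or 3, 5 of the 42 were lower. Between aged and young FO B cells 0 of 42 were called in either direction by limma, against 0.119% lower and 0.346% higher of all genes tested. Between ABCs and young FO B cells 12 of 43 were lower and 12 higher, with 7 lower without FO B (Young) replicate 3. Of all 10438 genes tested there, 19.1% were lower and 21.6% higher. The other pathway genes went both ways in each comparison with ABCs, as did all genes tested. The counts by role below stand against the same shares of all genes.

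Of the other genes that control SREBP, 2 of 10 tested were lower and 1 higher in ABCs than in aged FO B cells. Insig2, the second Insig gene, was at 22.5, 19.1 and 22.6 FPKM in aged FO B cells and at 36.6, 30.6 and 31.1 FPKM in ABCs. It was 1.53-fold higher, with an adjusted p of 0.0047 by limma, the opposite direction to Insig1. Rnf145, a ubiquitin ligase gene of this control, was lower with a log2 fold change of -0.92 and an adjusted p of 0.0021 by limma. Scap, the escort of SREBP, was lower by less, with a log2 fold change of -0.44 and an adjusted p of 0.031 by limma, and that call was lost under 6 of the settings tried, among them each fit without 1 of the FO B (Aged) libraries (adjusted p of 0.059 to 0.098). Srebf1, which encodes SREBP-1, was at 17.0, 15.9 and 17.5 FPKM in aged FO B cells and at 13.3, 13.3 and 17.6 FPKM in ABCs, with a log2 fold change of -0.19 and an adjusted p of 0.27 by limma. ABCs (Aged) replicate 3 was the high one, and without it Srebf1 was called lower, with a log2 fold change of -0.31 and an adjusted p of 0.034 by limma.

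Plain ratios of FPKM within a library do not depend on its scaling. The log2 ratios tested had 1 FPKM added to both genes, which leaves some dependence on scaling. The ratio of Insig1 to Insig2 was 1.02, 1.24 and 1.10 in young FO B cells, 0.755, 0.826 and 0.714 in aged FO B cells, and 0.295, 0.366 and 0.427 in ABCs. The 3 groups did not overlap. The log2 ratio differed by -1.03 between ABCs and aged FO B cells and by -0.52 between aged and young FO B cells. Each difference had an exact two-sided permutation p of 0.1, the smallest possible, and 0.12 after adjustment over the 6 ratio tests. The ratio of Srebf2 to Srebf1 was 4.40 to 4.79 in aged FO B cells and 2.96 to 4.22 in ABCs, a log2 difference of -0.30 with the same exact p.

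Of 6 other mevalonate enzymes, 1 was lower and none higher in ABCs than in aged FO B cells. That was Fdps, farnesyl diphosphate synthase, at 53.0, 39.5 and 56.7 FPKM in aged FO B cells and at 23.3, 22 and 20.7 FPKM in ABCs. It was 2.26-fold lower with an adjusted p of 0.001 by limma, and its libraries did not overlap. Mvd, mevalonate diphosphate decarboxylase, had a log2 fold change of 0.25 with an adjusted p of 0.22 by limma, and of 0.099 without FO B (Aged) replicate 2.

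Of 8 other enzymes after squalene that were tested, 1 was lower and 3 higher in ABCs than in aged FO B cells. Ebp, the sterol isomerase, was at 42.4, 35.8 and 34.7 FPKM in aged FO B cells and at 58.4, 58.1 and 65.2 FPKM in ABCs, 1.61-fold higher with an adjusted p of 0.0019 by limma. Nsdhl, which acts in the removal of methyl groups from the ring, was 1.75-fold higher with an adjusted p of 0.0099 by limma. Tm7sf2, a sterol reductase gene, was 1.65-fold higher with an adjusted p of 0.039 by limma, a call lost under 8 of the settings tried, and without any 1 library except FO B (Aged) replicate 2 (adjusted p of 0.053 to 0.11). The lower one was Lbr, another sterol reductase gene, which encodes the lamin B receptor and was named after its values were seen. Its log2 fold change was -0.36, with an adjusted p of 0.0046 by limma and of 0.33 under upper-quartile scaling. Msmo1, the methylsterol oxidase, had a log2 fold change of -0.27 with an adjusted p of 0.10 by limma, and was called lower without FO B (Aged) replicate 2, at -0.37 with an adjusted p of 0.045.

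**Figure D4:**
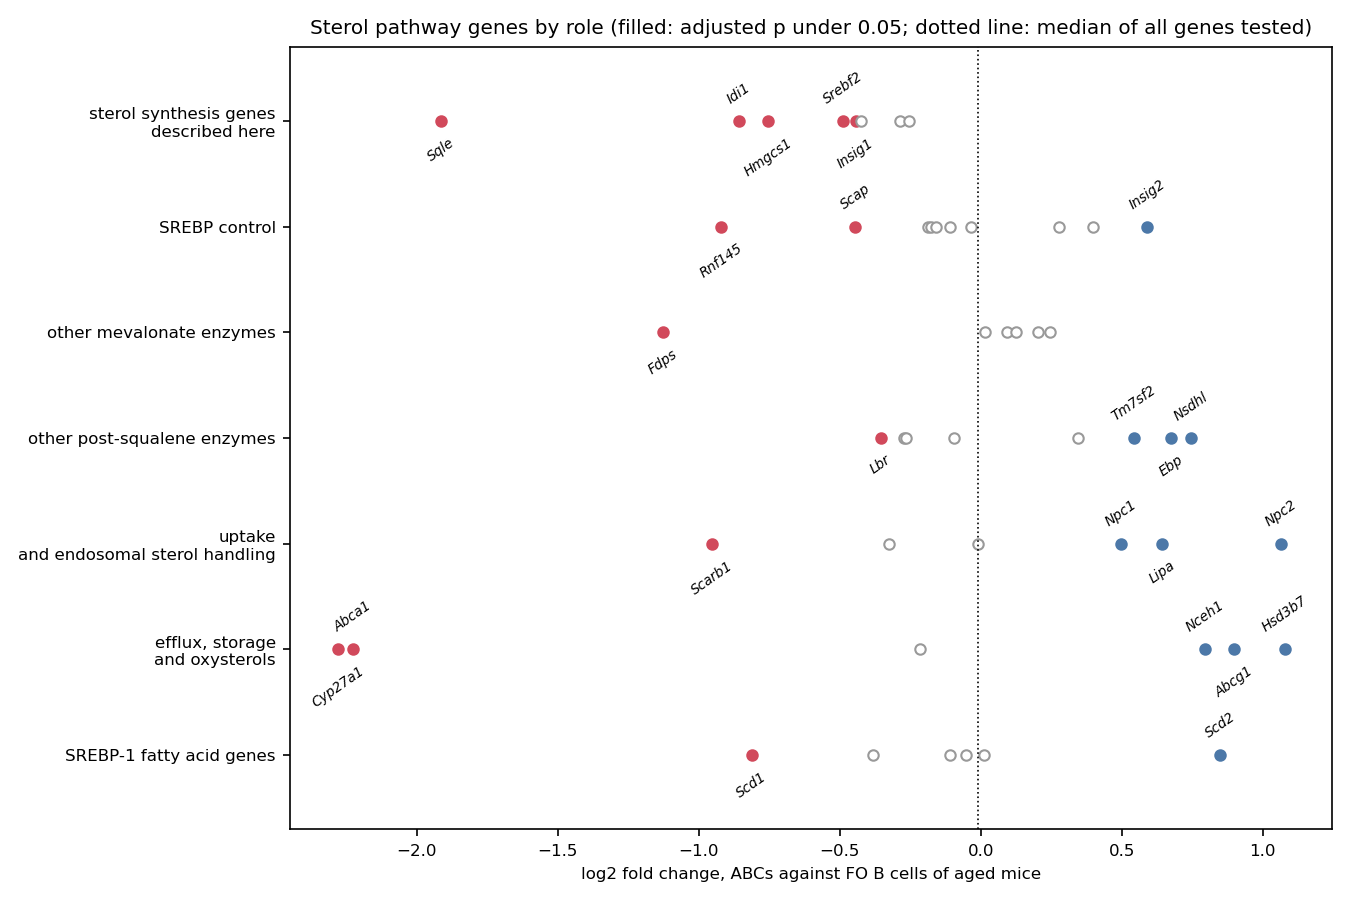
Log2 fold changes on log2(FPKM + 1), aged ABCs against aged FO B cells (x axis), for the 8 sterol synthesis genes and the other tested pathway genes by role (y axis). Filled points, with names, have an adjusted p under 0.05 (red lower, blue higher), and the dotted line is the median of all genes tested. The top row is all to the left of that line, while the other roles spread to both sides. The members and the lists were chosen with earlier results of these data known, so this contrast is a description and no test.

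Of 6 tested genes of uptake and endosomal sterol handling, 1 was lower and 3 higher in ABCs than in aged FO B cells. The lower one, Scarb1, a receptor for high-density lipoprotein, was at 6.38, 5.71 and 5.84 FPKM in aged FO B cells and at 4.72, 2.05 and 1.67 FPKM in ABCs. The groups did not overlap, but ABCs (Aged) replicate 1 lay nearer to the FO B libraries than to its own group. Scarb1 had a log2 fold change of -0.95 and an adjusted p of 0.033 by limma, a call lost without any 1 library except ABCs (Aged) replicate 1 (adjusted p of 0.057 to 0.0998). The higher ones act in the lysosome. Npc2, which hands on cholesterol within the lysosome, was 2.13-fold higher with an adjusted p of 0.00011 by limma. Its membrane partner Npc1 was 1.49-fold higher with an adjusted p of 0.013 by limma, or 0.051 without FO B (Aged) replicate 3. Lipa, the lysosomal acid lipase, was higher too, with a log2 fold change of 0.64 and an adjusted p of 0.00064 by limma. Lrp1, Vldlr and Lrp8 were below the limit of a mean of 1 FPKM and were not tested.

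Of 6 tested genes of efflux, storage and oxysterols, 2 were lower and 3 higher in ABCs than in aged FO B cells. Abca1, a cholesterol exporter, was at 8.94, 12.9 and 11.2 FPKM in aged FO B cells and at 1.28, 1.92 and 1.48 FPKM in ABCs, 7.07-fold lower with an adjusted p of 0.00014 by limma. Abcg1, the other exporter, was at 17.0, 18.6 and 17.9 FPKM in aged FO B cells and at 32.5, 30.2 and 40.4 FPKM in ABCs, 1.93-fold higher with an adjusted p of 0.0012 by limma. Both are known targets of the sterol-sensing LXR receptors, and they went in opposite directions. Cyp27a1, which makes 27-hydroxycholesterol, was lower with a log2 fold change of -2.28 and an adjusted p of 0.022 by limma. Its ABC libraries were wide, at 7.77, 12.1 and 1.22 FPKM, in the same order as Fcer2a, and its call was lost when any of the 3 aged FO B libraries was left out, with adjusted p of 0.057 to 0.075. Hsd3b7, a bile acid synthesis enzyme, was higher with an adjusted p of 0.035 by limma, from a mean of 1.12 FPKM in aged FO B cells, and that call was lost without any 1 library except ABCs (Aged) replicate 3 (adjusted p of 0.062 to 0.099). Nceh1, a cholesteryl ester hydrolase gene named after its values were seen, was the third gene higher, with a log2 fold change of 0.79 and an adjusted p of 0.0045 by limma. Soat1, which stores cholesterol as esters, had a log2 fold change of -0.21 with an adjusted p of 0.15 by limma, and of -0.13 without ABCs (Aged) replicate 2.

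Of 6 tested fatty acid genes that SREBP-1 is known to control, 1 was lower and 1 higher in ABCs than in aged FO B cells. They were 2 forms of stearoyl-CoA desaturase. Scd1 was at 183, 174 and 181 FPKM in aged FO B cells and at 105, 104 and 95.4 FPKM in ABCs, with an adjusted p of 0.00018 by limma. Scd2 was at 16.5, 14.5 and 16.3 FPKM in aged FO B cells and at 26.5, 24.3 and 38.6 FPKM in ABCs, with an adjusted p of 0.0076 by limma.

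Summed levels of cell cycle genes and of some other marker lists differed between the groups. The sum of 10 cell cycle genes was 17.8 to 20.4 FPKM in young FO B cells, 23.3 to 23.7 FPKM in aged FO B cells and 40.8 to 78.4 FPKM in ABCs, where 6 of 9 tested were higher than in aged FO B cells. Of 6 cell cycle genes tested between aged and young FO B cells, 0 were called. The order of these sums, from young FO B cells through aged ones to ABCs, is the reverse of that of the 8 sterol genes. A link between them was not tested. The sum of 6 plasma cell markers was 110 to 134, 129 to 148 and 191 to 225 FPKM in the same order. Most of that sum was Xbp1, with means of 91.2, 114 and 134 FPKM. Of 5 plasma cell markers tested, 3 (Jchain, Prdm1 and Sdc1) were higher in ABCs than in aged FO B cells. Xbp1 and Irf4 were not called, and Irf4 had its lowest mean in ABCs. The sum of 9 macrophage and monocyte markers was 31.8 to 53.0 FPKM in young and 14.3 to 22.9 FPKM in aged FO B cells. In ABCs it was 77.6 to 90.4 FPKM. Most of that sum was Ly6c2 alone, with means of 26.9, 11.5 and 74.2 FPKM in the same order of groups. Of 4 genes tested, Ly6c2 was the 1 called higher in ABCs than in aged FO B cells. Lyz2, C1qb and C1qc had means of 5.10, 2.01 and 2.25 FPKM in ABCs. In aged FO B cells these were 3.99, 1.01 and 0.72 FPKM, with overlap between libraries and no call. The other 5, Csf1r, Cd14, C1qa, Ccr2 and Mertk, each had means under 1 FPKM. The sum of 5 neutrophil markers reached at most 21.3 FPKM in an FO B library and 0.645 FPKM in an ABC library. The part of any other cells in the levels of the sterol genes was not tested.

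The genes whose standardized levels over the 9 libraries lay nearest to the average of the 8 members were Rps19bp1, Nolc1, Mthfd1, Uba7 and Eif4a3. Their root mean square distances were 0.12 to 0.22 SDs, against a median of 1.34 SDs over 10367 genes. The members themselves lay 0.18 (Hmgcs1) to 0.60 (Lss) SDs from their own average. Each member is part of that average, which lowers its distance, so these values cannot be set against those of other genes. Of the other pathway genes, Fdps was nearest, at rank 37, followed by Msmo1 at rank 103 and Fasn, the fatty acid synthase gene, at rank 113. Lipa, Npc2 and Ebp were the farthest, with distances of 1.88 to 1.90 SDs.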

How the data were processed

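Levels of 24346 genes were read from 9 tables, 1 per library, of splenic B cells sorted from C57BL6 mice. Full-length cDNA was made with a SMART-Seq HT kit and libraries with a Nextera kit, and 101-base single-end reads were sequenced. The authors aligned reads to mm10 and deposited FPKM values per gene symbol, so values are already scaled to depth and gene length and hold no counts. The submitters' processing notes name TopHat2 2.1.1, Bowtie2 2.2.8, SAMtools 0.1.18 and Cuffdiff 2.2.1. The gene annotation behind the values was not given in the sources used here. Reads were estimated from the whole-number steps of low FPKM values in 577 genes with 1 annotated transcript, and such estimates cover counting error only.

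Groups were taken from the sample titles. Genes averaging 1 FPKM or more in the libraries compared were tested with limma 3.58.1 in R 4.3.3 (linear model, empirical Bayes with trend) on log2(FPKM + 1), between the groups compared only, with Benjamini-Hochberg adjustment over all genes tested and calls at an adjusted p under 0.05. Fits were tested on simulated data. Ratios were compared by exact two-sided permutation over libraries. The labels do not say that libraries came from separate mice, so p-values measure the spread between these libraries. Deviations of same-numbered libraries from their group means had correlations across genes of -0.10 to 0.14 over all comparisons. Between ABCs and aged FO B cells, the groups of the same age, they were 0.083, -0.018 and 0.11. Differently numbered libraries of these groups had -0.11 to 0.062. Such small values do not settle whether libraries were paired, and the numbers were not used as pairs in the main fits.

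The members and all gene lists were chosen with earlier results of these data known. Named genes were the 8 members, 10 pathway genes given whatever they showed (Scap, Insig2, Srebf1, Fdps, Mvd, Msmo1, Abca1, Abcg1, Soat1, Npc1), the 3 most changed called genes of each list in ABCs against aged FO B cells, and the 5 genes nearest to the members' average level. Some other genes of these lists are not reported here, and counts leave them out. Alternatives changed the pseudocount, the filter, the scaling, the variance model, the libraries fitted, the replicate block and the thresholds, 1 at a time.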

Additional observations from a re-analysis of the deposited data

How the results depend on the processing

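Members called lower in ABCs than in aged FO B cells numbered 5, and 3 with upper-quartile scaling, 3 at an adjusted p under 0.01, and 0 at the thresholds of the study (adjusted p under 0.01 and an absolute log2 fold change above 2.3). Those thresholds were applied here on log2(FPKM + 1), which understates changes of low genes. The study describes a more than 5-fold difference and states no added constant. Leaving out 1 library gave 3 to 6, the 3 without FO B (Aged) replicate 1. Other pathway genes numbered 8 lower and 11 higher, with 5 lower under no filter on low values, upper-quartile scaling or an adjusted p under 0.01. They were 0 and 0 at the thresholds of the study on that scale. There Abca1, with a 7.07-fold lower mean FPKM, had a log2 fold change of -2.23. Other pathway genes numbered 5 to 10 lower and 9 to 11 higher when 1 library was left out, the 5 without FO B (Aged) replicate 1 or 3. Between aged and young FO B cells 0 members were called and 1 with upper-quartile scaling, and leaving out 1 library gave 0 members and 0 other pathway genes in each direction. Between ABCs and young FO B cells 7 members were lower, also with each library left out, and 1 at the thresholds of the study. There 12 other pathway genes were lower, 7 at an adjusted p under 0.01, 1 at the thresholds of the study and 7 to 13 with 1 library left out, the 7 without FO B (Young) replicate 3. Those higher numbered 12, 0 at the thresholds of the study and 9 to 11 with 1 library left out.

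With libraries left out 1 at a time, the log2 difference of Insig1 to Insig2 was -1.15 to -0.90 (ABCs against aged FO B cells), -0.58 to -0.45 (aged against young) and -1.67 to -1.42 (ABCs against young). That of Srebf2 to Srebf1 was -0.39 to -0.14, -0.10 to -0.043 and -0.46 to -0.21, in the same order. Directions turned only for values that were not called. Between the ages, leaving out 1 library at a time gave log2 fold changes of -0.063 to 0.043 for Lss, -0.10 to 0.078 for Scap, -0.23 to 0.15 for Mvd, -0.20 to 0.043 for Abca1, -0.14 to 0.015 for Abcg1, -0.032 to 0.029 for Rnf145 and -0.081 to 0.042 for Lipa. Upper-quartile scaling turned Insig2 to -0.046, Npc2 to -0.071, Scd2 to -0.0013 and Scd1 to -0.0087. For Tm7sf2 between ABCs and young FO B cells the range was -0.22 to 0.16. The cause of these shifts was not tested.

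The replicate number was also fitted as a block, though the labels do not say that it pairs libraries. Then 6 members were lower in ABCs than in aged FO B cells (Fdft1 was added, at an adjusted p of 0.038 by limma). With that block 0 members differed between ages and 7 were lower in ABCs than in young FO B cells. Scap and Hsd3b7 lost their calls between ABCs and aged FO B cells under the block, at adjusted p of 0.057 and 0.073.

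Upper-quartile scaling also moved the split of all calls, from 1719 lower and 2020 higher to 601 and 2455 between ABCs and aged FO B cells, from 12 and 35 to 27 and 23 between ages, and from 1996 and 2252 to 928 and 1851 between ABCs and young FO B cells. With a mean of at least 5 FPKM required, Lss alone of the members was not tested. Depth limits Sqle in ABCs most among the members, where about 57 reads in replicate 3 give a counting error of 13.2%.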
